A study of Mus musculus with 15 samples.

Results

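The nuclear-encoded subunits of respiratory complexes II to V were followed in blood stem cells and myeloid progenitors of young and old mice. A gene was taken as a member if its symbol was Sdha, Sdhb, Sdhc, Sdhd or Cyc1 or began with Uqcr, Cox4, Cox5, Cox6, Cox7, Cox8 or Atp5, and if a probe set carried that symbol alone. By this rule 47 of the 19296 genes measured were members: 4 of complex II, 9 of complex III, 17 of complex IV and 17 of complex V. The members had 66 probe sets, and where a gene had several (12 members), the brightest over all arrays was used. Another 3 probe sets name Cox7c together with a second gene and were left out by the rule.

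The study, whose title concerns replication stress and functional decline of ageing haematopoietic stem cells (HSC), compared HSC with granulocyte/macrophage progenitors (GMP) on 15 expression arrays. Young mice gave 5 arrays of HSC and 4 of GMP, and old mice 3 of each, all from wild type C57Bl/6 mice labelled male, with no treatment named in the labels. The young mice were aged 6 to 12 weeks and the old ones 22 to 30 months. HSC were sorted as Lin-, cKit+, Sca1+, Flk2-, CD48- and CD150+ cells, and GMP as Lin-, cKit+, Sca1-, FcyR+ and CD34+ cells, each sorted again for purity. The small amounts of RNA were amplified before hybridisation, and it is not stated whether 1 mouse or a pool was used per array. The p-values therefore measure only the spread between arrays, which may be partly technical. In such bulk samples a lower value can come from fewer cells of one type or from less RNA per cell, and these cannot be told apart.

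The respiratory chain passes electrons from nutrients to oxygen and uses the energy to pump protons across the inner mitochondrial membrane. Complex II, succinate dehydrogenase, feeds electrons from the TCA cycle into ubiquinone, complex III passes them to cytochrome c, complex IV reduces oxygen, and complex V, the ATP synthase, makes ATP as protons flow back. Stem cells of the bone marrow are known for relying on glycolysis more than their progeny do, while progenitors draw more on mitochondrial respiration. The subunits encoded in mitochondrial DNA were not analysed here.

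Marker genes matched the sorted populations: the 5 HSC markers measured were higher in HSC than in GMP, and the 5 GMP markers lower, at both ages (all with adjusted p under 0.05). Several young arrays did not match the male label, because Xist, a transcript of female cells, was at 10.02 to 11.51 log2 on young HSC replicates 2 to 5 and at 8.92 to 10.95 on young GMP replicates 2 to 4, against 4.72 and 5.49 on replicate 1 of each and 5.46 to 5.84 on the 6 old arrays. The Y-linked gene Eif2s3y was at 4.02 and 4.32 on replicate 4 of young HSC and young GMP and at 7.75 to 9.57 elsewhere. These replicate 4 arrays also stood apart in the members: young HSC replicate 4 was the lowest of its group for 38 of the 47 members, and young GMP replicate 4 for 39. The interquartile range of all values on an array, a measure of its contrast, ran in HSC from 1.96 to 2.33 log2 (old) and 2.21 to 2.69 (young), and in GMP from 2.27 to 2.48 (old) and 2.13 to 2.60 (young), lowest within the young groups on the replicate 4 arrays.

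Averaged over its members, each complex was lowest in old HSC and highest in young GMP, given here as a description without a test. The mean of complex II over the 3 old HSC arrays was 9.50 ± 0.06 log2 (SD), over the 5 young HSC arrays 9.89 ± 0.22, over the 3 old GMP arrays 10.16 ± 0.02 and over the 4 young GMP arrays 10.19 ± 0.06. In the same order, with the same n, complex III was at 9.67 ± 0.15, 10.37 ± 0.33, 10.45 ± 0.11 and 10.74 ± 0.24 log2. Complex IV was at 9.55 ± 0.05, 9.73 ± 0.12, 9.88 ± 0.06 and 9.97 ± 0.06, and complex V at 10.76 ± 0.13, 11.37 ± 0.27, 11.46 ± 0.07 and 11.72 ± 0.21. Young HSC and old GMP lay within their spread of each other for complexes III and V, and young HSC replicate 4, at 9.83 log2 for complex III and 10.93 for complex V, lay next to the highest old HSC array, at 9.84 and 10.91. For all 19296 genes the group means ran from 7.40 to 7.44 log2, but this mean does not show how genes as bright as the members moved. In the brightest of 10 equal groups of genes, which held 36 members, all genes had a median age difference of -0.29 log2 in HSC.

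**Figure D1:**
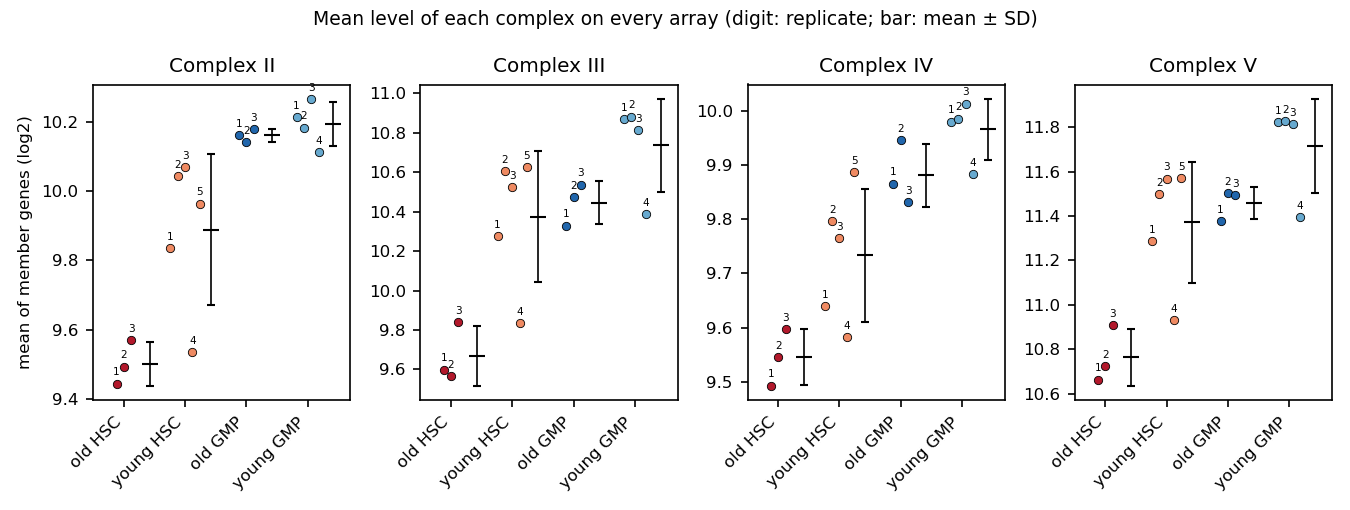
Mean log2 value of the members of each complex on every array (points, with the replicate number) and the mean ± SD of each group (bars). Old HSC have the lowest group mean in every complex, and in complexes III and V young HSC replicate 4 and young GMP replicate 4 lie below the other arrays of their groups.

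In HSC, 25 of the 47 members fell with age and 0 rose at an adjusted p under 0.05 (limma, Benjamini-Hochberg over all 19296 genes), against a background of 9.22% of all genes lower and 2.25% higher. The members that fell were 2 of 4 in complex II, 6 of 9 in complex III, 6 of 17 in complex IV and 11 of 17 in complex V. The median difference, old minus young, was -0.51 log2 over the members and 0.03 over all genes. By complex it was -0.27 for II, -0.63 for III, -0.26 for IV and -0.59 for V. For 16 members every old HSC array lay below every young one (1 in complex II, 4 in III, 1 in IV and 10 in V), which 7.69% of all genes showed.

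In complex II, Sdhb, the iron-sulfur subunit, had the largest difference. Sdhb was at 8.95, 8.53 and 9.19 log2 on the 3 old HSC arrays and at 9.76, 10.40, 10.28, 9.32 and 9.96 on young HSC replicates 1 to 5. All old arrays were below all young arrays, and Sdhb fell by 1.05 log2 (SE 0.19, adjusted p = 0.00397), or 2.07-fold. The catalytic flavoprotein Sdha was at 10.45, 10.17 and 10.59 in old HSC and at 10.97, 10.98, 10.92, 10.45 and 10.93 in young HSC, so that only young replicate 4 overlapped the old arrays. Sdha fell by 0.45 log2 (SE 0.14), close to the threshold (adjusted p = 0.0485). The membrane anchors that hold these catalytic subunits did not pass the test. Sdhc was at 10.35, 10.83 and 10.47 in old HSC and at 10.51, 10.60, 10.60, 10.23 and 10.59 in young HSC, with overlapping groups and a difference of 0.04 log2 (SE 0.13, adjusted p = 0.831). Sdhd differed by -0.08 log2 (adjusted p = 0.656).

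In complex III the largest differences were in small accessory subunits. Uqcrq, which packs against cytochrome b, was at 9.60, 10.22 and 10.46 log2 in old HSC and at 11.30, 11.56, 11.45, 10.09 and 11.68 in young HSC. Only young replicate 4 fell within the old range, and Uqcrq fell by 1.13 log2 (SE 0.28, adjusted p = 0.0186). Uqcr10, another small subunit, was at 9.27, 8.90 and 8.93 in old HSC and at 9.99, 9.98, 10.29, 9.43 and 10.35 in young HSC. The groups did not overlap, and Uqcr10 fell by 0.98 log2 (SE 0.19, adjusted p = 0.00529). Uqcr11 was at 8.12, 8.49 and 8.77 in old HSC and at 9.30, 9.69, 9.77, 8.69 and 9.63 in young HSC, again with young replicate 4 inside the old range. It fell by 0.95 log2 (SE 0.23, adjusted p = 0.0165). Both core proteins that frame the complex fell too, Uqcrc1 by 0.82 and Uqcrc2 by 0.63 log2. Of the subunits that carry redox centres, the Rieske protein Uqcrfs1 fell by 0.46 log2 (adjusted p = 0.0333), whereas cytochrome c1, Cyc1, differed by -0.52 log2 and missed the threshold (adjusted p = 0.0676). Uqcrh, the hinge protein that contacts cytochrome c1, had the smallest difference of the complex. It was at 11.82, 11.77 and 11.86 in old HSC and at 12.11, 12.34, 12.14, 11.80 and 12.39 in young HSC, a difference of -0.34 log2 (SE 0.12, adjusted p = 0.0739).

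Complex IV has nuclear-encoded subunits with isoforms that are used in particular tissues, and these are counted apart from the widely used ones. The 10 members other than Cox4i2, Cox6a2, Cox6b2, Cox7a1, Cox7b2, Cox8b and Cox8c all had negative differences, with a median of -0.45 log2, and 5 of them fell. Of the 7 tissue-restricted isoforms 6 had positive differences, with a median of 0.21 log2 over the 7, and the only one that passed the test, Cox6b2, was lower. The 6 with positive differences were also dimmer than every other member. All genes were split by mean level into 10 equal groups, counted from the dimmest. Cox7b2 lay in group 1, Cox8b and Cox8c in group 4, and Cox4i2, Cox6a2 and Cox7a1 in group 6. The median age difference of all genes in these groups was 0.08, 0.16 and 0.04 log2. In group 6, Cox4i2 differed by 0.27, Cox6a2 by 0.27 and Cox7a1 by 0.13 log2. Cox7a2 was at 10.08, 9.86 and 9.89 log2 in old HSC and at 10.45, 10.74, 10.70, 10.10 and 10.85 in young HSC. It was the single member of complex IV whose groups did not overlap, and it fell by 0.62 log2 (SE 0.16, adjusted p = 0.0205). Cox7b was at 11.08, 11.19 and 11.39 in old HSC and at 11.63, 11.93, 11.80, 11.35 and 11.99 in young HSC, and fell by 0.52 log2 (SE 0.14, adjusted p = 0.0257). Cox6b2, an isoform described mainly in testis, was at 9.54, 9.37 and 9.43 in old HSC and at 9.997, 10.28, 10.08, 9.54 and 10.04 in young HSC. It fell by 0.54 log2 (SE 0.16, adjusted p = 0.0342), with young replicate 4 level with the highest old array. Cox7b2, with the smallest difference of the complex, was at 4.28, 4.48 and 4.42 in old HSC and at 4.12, 4.31, 4.42, 4.44 and 4.22 in young HSC. These values lay below the lower quartile of the arrays in all 4 groups, so no fold is given.

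In complex V the members that fell came from every part of the enzyme. Of the catalytic head and central stalk, Atp5e, Atp5d and Atp5a1 fell, and Atp5c1 and Atp5b did not pass the test. Atp5e, the epsilon subunit of the central stalk, was at 10.56, 10.67 and 10.74 log2 in old HSC and at 11.52, 11.81, 11.92, 11.00 and 11.89 in young HSC. The groups did not overlap, and Atp5e fell by 0.97 log2 (SE 0.17, adjusted p = 0.00341), the smallest adjusted p of any member. All 4 peripheral stalk subunits fell: Atp5h, Atp5o, Atp5pb and Atp5j. Atp5h was at 10.88, 10.84 and 11.29 in old HSC and at 11.76, 12.09, 11.98, 11.37 and 12.09 in young HSC, and fell by 0.85 log2 (SE 0.17, adjusted p = 0.00606). Atp5o, which joins the stalk to the head, was at 9.54, 9.69 and 9.72 in old HSC and at 10.47, 10.56, 10.85, 9.87 and 10.73 in young HSC, and fell by 0.84 log2 (SE 0.17, adjusted p = 0.00633). Neither gene had an old array above a young one. Among the small subunits of the membrane part, Atp5k and Atp5j2 fell, by 0.77 and 0.51 log2. For the probe sets used, Atp5l (-0.80 log2), Atp5mpl (-0.53) and Atp5md (-0.48) had adjusted p between 0.0612 and 0.0643. Another probe set of Atp5l and of Atp5md did pass, as given below. Atp5b, the catalytic beta subunit, had the smallest difference, -0.29 log2 (SE 0.11, adjusted p = 0.0844), although its 3 old arrays (11.46, 11.57 and 11.64) all lay below its young ones (11.75, 12.03, 11.89, 11.71 and 11.88).

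**Figure D2:**
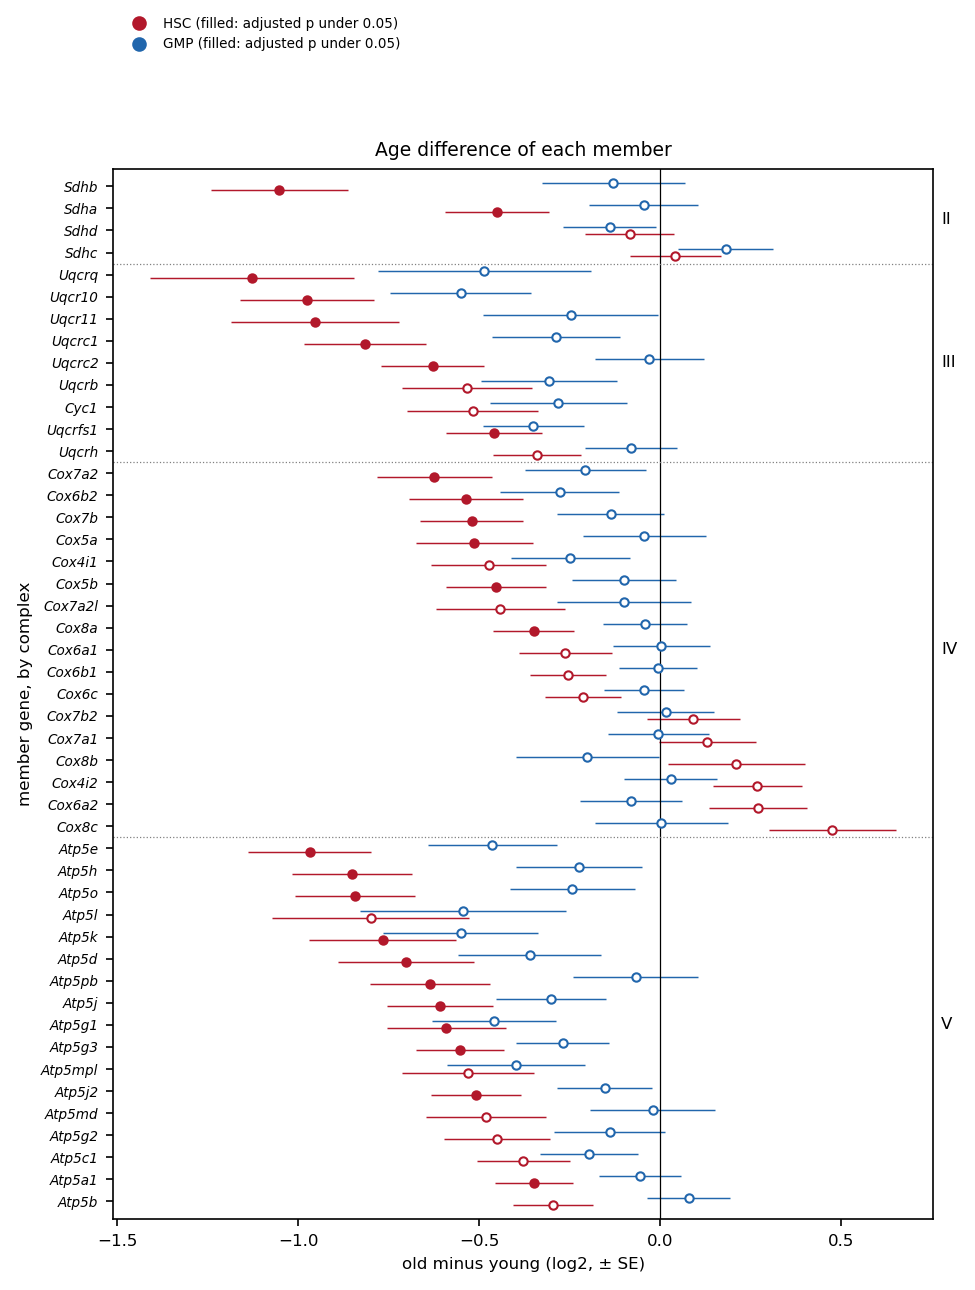
Difference between old and young mice for each member in HSC (red) and GMP (blue), in log2 with the standard error, ordered by complex. Filled points passed an adjusted p of 0.05. In HSC 25 members are filled, all left of 0, and in GMP none is.

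The contrast and brightness of the arrays moved with this result. Of the 47 members, 36 were in the brightest of the 10 groups of genes, and there the median age difference of all 1930 genes was -0.29 log2, with 29.1% of them called lower. The 36 members there had a median of -0.52 log2, and 21 were called. The 4 members in the next brightest group were all called, with a median of -0.70 log2 against -0.30 for all genes of that group, of which 25.6% were called lower. The old HSC arrays, as given above, also had the lower interquartile ranges. After quantile normalization, which gives every array the same distribution, 9 members were called lower: Sdhb, Uqcr10, Uqcr11, Uqcrc1, Uqcrc2, Uqcrq, Atp5e, Atp5h and Atp5o. The median over the members was then -0.23 log2. With each array's interquartile range as a covariate 0 members were called, and 105 of all genes were, with a median over the members of -0.20 log2. The part of array contrast in the result was not tested beyond these fits. The age groups also differed in Xist, which was low on all 6 old arrays and high on 7 of the 9 young arrays. With each array's Xist value as a covariate 22 members were called lower: 2 in complex II, 6 in complex III, 4 in complex IV and 10 in complex V. For this fit and for quantile normalization the share of all genes called is not given here.

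**Figure D3:**
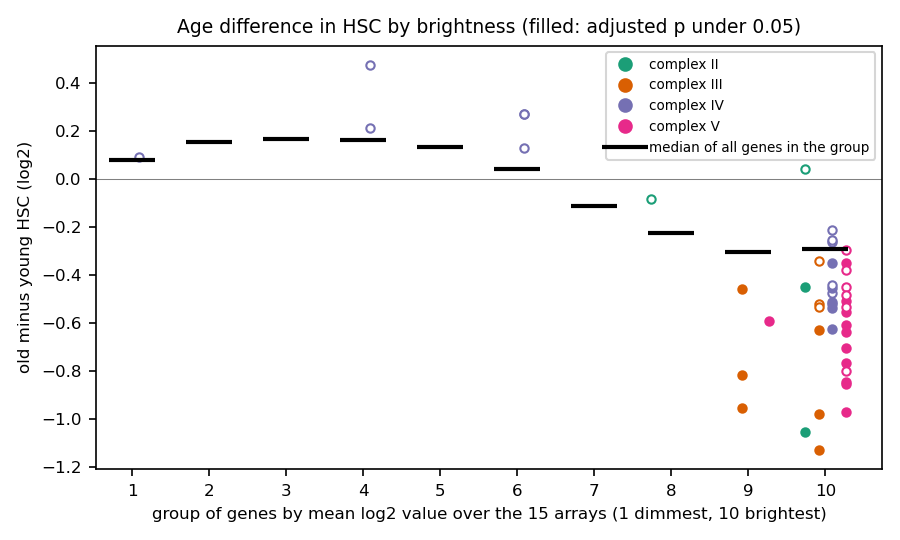
Age difference in HSC for each member (points, by complex, filled where the adjusted p was under 0.05) against the group of genes it belongs to (10 equal groups by mean log2 value), with the median of all genes in each group (black bars). The medians pass from above 0 in the dim groups to about -0.3 log2 in the brightest ones, where most members lie at or below them.

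How many members passed varied with single arrays. Of all 47 members, called or not, young HSC replicates 1, 2, 3 and 5 lay above every old HSC array for 35, 39, 38 and 39 genes. Replicate 4 did so for 17. The same counts over all genes are not given here. Without young HSC replicate 4, 39 members were called (37 lower and 2 higher), and leaving out both young replicate 4 arrays gave 40, with 38 lower and 2 higher (Cox4i2 and Cox8c), when 32.0% of all genes were called. Without old HSC replicate 2 or 1, 5 or 6 members were called. Without young HSC replicate 2, 3 or 5 the counts were 11, 12 and 15. With only the HSC arrays in the fit, 13 were called. In the main fit 11.5% of all genes were called. Apart from the 32.0% above, that share is not given here for the other fits. These counts therefore cannot separate the members from all genes. Sdhb, Uqcr10, Atp5e, Atp5h and Atp5o were called in 25 of 26 settings, all but the one with the interquartile range as a covariate, and their differences were negative in all 26. Tissue-restricted Cox4i2, Cox7a1 and Cox8c had positive differences in every setting that measured them.

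**Figure D4:**
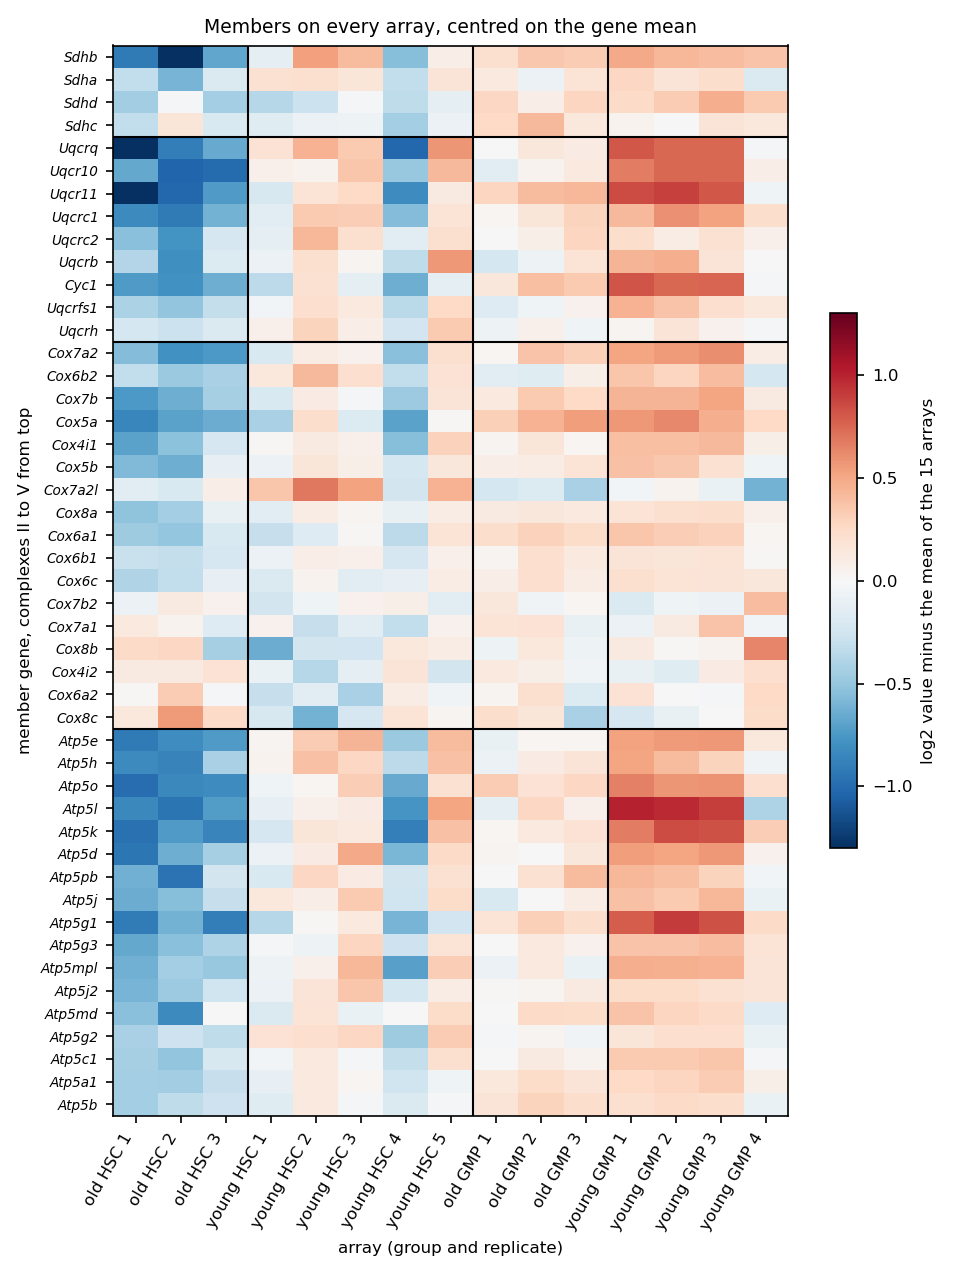
Log2 value of each member on every array minus the gene's mean over the 15 arrays, with genes ordered by complex and then by their age difference in HSC. Old HSC arrays are the lowest for most genes of complexes III and V, and young HSC replicate 4 is closer to them than its group is. The 6 tissue-restricted isoforms at the foot of the complex IV block have positive differences, none of which passed the test.

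Isoforms of one subunit are listed here together. Cox4i1, the widely used isoform of subunit IV, differed by -0.47 log2 with age in HSC, and Cox4i2, the lung isoform, by 0.27. In GMP the age differences of Cox4i1 and Cox4i2 were -0.25 and 0.03 log2. Between HSC and GMP, Cox4i1 differed by -0.33 log2 in young mice and by -0.55 (called) in old mice, while Cox4i2 differed by -0.15 and 0.09. For subunit VIa, the widely used Cox6a1 differed by -0.26 with age in HSC, 0.00 in GMP, -0.38 between cell types in young mice and -0.64 in old mice, the last 2 called. The muscle isoform Cox6a2 differed by 0.27, -0.08, -0.27 and 0.08 log2 in the same 4 comparisons, none called. For subunit VIb, Cox6b1 differed by -0.25, -0.01, -0.15 and -0.39 log2, the last called, and Cox6b2 by -0.54 (called), -0.28, -0.07 and -0.33. In the Cox7a family, Cox7a1, the heart and muscle isoform, differed by 0.13, -0.01, -0.23 and -0.09 log2 with none called. Cox7a2 differed by -0.62, -0.21, -0.52 and -0.93, called in all but age in GMP. Cox7b differed by -0.52, -0.14, -0.46 and -0.85 log2, likewise called in all but age in GMP, and Cox7b2 passed no test. In the Cox8 family, Cox8a differed by -0.35 (called), -0.04, -0.17 and -0.48 (called), Cox8b by 0.21, -0.20, -0.38 and 0.03, and Cox8c by 0.48, 0.00, -0.15 and 0.33. The 3 genes for the c subunit of the ATP synthase ring encode the same mature protein. Of these, Atp5g1 differed by -0.59 (called), -0.46, -0.91 (called) and -1.04 log2 (called). Atp5g3 differed by -0.55 (called), -0.27, -0.31 and -0.59 (called), and Atp5g2 by -0.45, -0.14, -0.02 and -0.33 with none called.

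Genes of the respiratory chain are known to carry sites for NRF1, ETS family factors such as GABP, and YY1 near their start sites. RefSeq promoter windows (build GRCm38.p6, 250 bases before to 50 after the start) were at hand for 35 of the 47 members, 22 of them among the 25 that fell with age in HSC. The windows were searched on both strands for exact letters. The NRF1 motif GCGCATGCG, whose matches on the 2 strands can overlap, occurred in 6 of the 35 windows (17.1%), against 1.81% of all 27025 windows and 5.35% of the 3199 windows of genes in the brightest 2 of 10 groups. The ETS motif CCGGAAGT occurred in 4 (11.4%), against 4% of all windows and 10.8% of those of bright genes. The YY1 motif AAGATGGCG occurred in 1 window (2.86%, against 1.5% of all windows and 3.94% of those of bright genes). The CCAAT box, searched as CCAAT, occurred in 20 windows (57.1%), against 37.9% of all windows and 39.1% of those of bright genes. Of the 6 members with the NRF1 motif, 3 fell with age in HSC (Atp5k, Uqcr11 and Uqcrc1) and 3 did not pass (Atp5g2, Atp5l and Cox6a1). Of the 4 with the ETS motif, 3 fell (Atp5h, Cox8a and Uqcr11) and Uqcrh did not pass. The stretches below show an NRF1 and an ETS match each in a member that fell and in one that did not pass, with the matched letters in capitals and the gene's strand read 5′ to 3′. All lie on the minus strand.
Atp5k, fell, NRF1 match 50 bases before the start, chr5:108434416-108434474: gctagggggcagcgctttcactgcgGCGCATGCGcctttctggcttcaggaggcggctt
Atp5g2, not passed, NRF1 match 42 bases before the start, chr15:102671056-102671114: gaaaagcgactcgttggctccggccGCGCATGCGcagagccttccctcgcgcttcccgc
Atp5h, fell, ETS match on the opposite strand 39 bases before the start, chr11:115419926-115419983: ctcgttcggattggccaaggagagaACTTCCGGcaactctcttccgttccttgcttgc
Uqcrh, not passed, ETS match on the opposite strand 11 bases before the start, chr4:116075071-116075106: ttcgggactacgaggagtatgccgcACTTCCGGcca
A match is a description of the letters only, and binding was not measured in this study.

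In GMP 0 of the 47 members passed the test for age, with 0.0% of all genes called. Unadjusted, 7 of 47 members had p under 0.05, as did 870 of the 19296 genes, and the smallest adjusted p of a member was 0.931. The differences were negative for 41 members, with a median of -0.14 log2 against -0.01 for all genes, and for 7 members every old GMP array lay below every young one, as for 3.72% of all genes. Uqcr10 was at 9.79, 9.97 and 10.05 log2 in old GMP and at 10.59, 10.67, 10.67 and 10.02 in young GMP, a difference of -0.55 log2 (SE 0.19). Only young replicate 4 lay within the old range. Atp5g1 was at 9.76, 9.90 and 9.81 in old GMP and at 10.37, 10.50, 10.42 and 9.84 in young GMP, a difference of -0.46 log2 (SE 0.17). Atp5e was at 11.38, 11.51 and 11.51 in old GMP and at 12.01, 12.04, 12.05 and 11.62 in young GMP, a difference of -0.46 log2 (SE 0.18) with no overlap. In all 3 genes young replicate 4 was the young array nearest to the old ones. Without replicate 4 of both young groups, 5 members were called lower in old GMP: Uqcr10, Atp5e, Atp5g1, Atp5k and Atp5l. The share of all genes called in that fit is not given here, so these calls cannot be set against it.

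The age difference was more negative in HSC than in GMP for 40 of the 47 members, but this difference between the cell types passed the test for 0 of 47, against 0.0933% of all genes. Unadjusted, 8 members had p under 0.05, as did 2165 of all genes. The median over the members, HSC minus GMP, was -0.29 log2. In the brightest of the 10 groups it was -0.33 for the 36 members and -0.27 log2 for all genes. Sdhb had the largest value, -0.92 log2 (SE 0.27, adjusted p = 0.263), from an age difference of -1.05 in HSC and -0.13 in GMP. Its old and young GMP arrays, at 10.08, 10.22 and 10.20 against 10.37, 10.30, 10.27 and 10.24 log2, did not overlap, each old array lying below each young one by a small margin. For Uqcrc2 the value was -0.60 log2 (SE 0.21, adjusted p = 0.324), and for Atp5h -0.63 (SE 0.24, adjusted p = 0.386). Uqcrc2 was at 9.98, 9.75 and 10.31 in old HSC and at 10.41, 10.96, 10.74, 10.39 and 10.73 in young HSC. In GMP it was at 10.53, 10.60 and 10.80 (old) and at 10.76, 10.62, 10.73 and 10.59 (young). Its old HSC arrays were below all others. Atp5h in GMP was at 11.63, 11.82 and 11.87 in old and at 12.22, 12.11, 12.00 and 11.66 in young mice. Without young HSC replicate 4, Sdhb and Atp5o were called, and without replicate 4 of both young groups Sdhb alone. For these fits too the share of all genes called is not given here.

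Between cell types in young mice, 12 members were lower in HSC than in GMP and 1 was higher. Of all genes 10.9% were lower and 13.6% higher. The members' median, HSC minus GMP, was -0.26 log2 against -0.05 for all genes, and for 5 members every young HSC array lay below every young GMP array, against 9.51% of all genes. In the brightest of the 10 groups 10 of 36 members were called, 9 of them lower, where 19.9% of all genes were called lower. In complex II, Sdhd, a membrane anchor, was at 8.10, 8.20, 8.46, 8.15 and 8.36 log2 in young HSC and at 8.73, 8.81, 8.95 and 8.82 in young GMP. The groups did not overlap, and the difference was -0.57 log2 (SE 0.11, adjusted p = 0.000654). Cyc1 was at 9.62, 10.16, 9.84, 9.33 and 9.84 in young HSC and at 10.77, 10.70, 10.72 and 9.94 in young GMP, a difference of -0.78 log2 (SE 0.17, adjusted p = 0.00138). Only GMP replicate 4 reached into the HSC range. Cox5a, a matrix-side subunit of complex IV, was at 10.18, 10.84, 10.42, 9.91 and 10.62 in HSC and at 11.17, 11.23, 11.08 and 10.87 in GMP, a difference of -0.69 log2 (SE 0.15, adjusted p = 0.00143) without overlap. Atp5g1 was at 9.21, 9.60, 9.71, 8.99 and 9.34 in HSC against the GMP values above, a difference of -0.91 log2 (SE 0.15, adjusted p = 0.00011). Its other probe set differed by -0.37 log2 and did not pass (adjusted p = 0.167). In old mice that probe set differed by -0.09 log2 (adjusted p = 0.864), against -1.04 for the one used.

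The member that was higher in young HSC was Cox7a2l, a relative of Cox7a2 that takes part in joining complexes III and IV into supercomplexes. It was at 12.10, 12.43, 12.27, 11.51 and 12.20 log2 in young HSC and at 11.71, 11.79, 11.66 and 11.13 in young GMP. Replicate 4 was the lowest array of both groups, and the difference was 0.53 log2 (SE 0.16, adjusted p = 0.0214). The other probe set of Cox7a2l differed by 0.32 log2 and did not pass (adjusted p = 0.0529). In old mice Cox7a2l was at 11.60, 11.55 and 11.84 in HSC and at 11.52, 11.57 and 11.33 in GMP, a difference of 0.19 log2 that did not pass (adjusted p = 0.619). Young HSC and young GMP arrays with the same replicate number deviated together from their group means, although the labels do not say that they share animals. A fit with the replicate number as a block was therefore added. This block covered all arrays, so old arrays were also tied to young ones by number. It is not a fit of young pairs alone. With this block 26 members were called, 25 lower and Cox7a2l higher, when 5667 of all genes were called. A block on the young arrays alone gave 25 members. With the interquartile range as a covariate 28 were called, 27 lower and 1 higher. Without young GMP replicate 3 there were 8. Apart from the block over all arrays, the share of all genes called is not given here for these fits. Their counts cannot be set against it.

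In old mice 32 members were lower in HSC than in GMP and 0 were higher, against 13.0% of all genes lower and 9.25% higher. These were 2 of 4 in complex II, 6 of 9 in complex III, 9 of 17 in complex IV and 15 of 17 in complex V. The median was -0.56 log2, against 0.02 for all genes. For 37 members every old HSC array lay below every old GMP array, as for 18.4% of all genes. In the brightest of the 10 groups 28 of 36 members were called, where 39.2% of all genes were called lower. Sdhb, at the old HSC and old GMP values given above, differed by -1.28 log2 (SE 0.21, adjusted p = 0.000151), or 2.42-fold. Uqcr11 was at 9.79, 9.91 and 9.94 in old GMP, above its old HSC arrays by a wide gap, and differed by -1.42 log2 (SE 0.26, adjusted p = 0.00038), the largest cell type difference of any member. Cox5a was at 9.76, 9.91 and 9.96 in old HSC and at 10.92, 11.06 and 11.15 in old GMP, a difference of -1.16 log2 (SE 0.18, adjusted p = 7.68e-05). Atp5o was at 10.86, 10.72 and 10.79 in old GMP and differed by -1.14 log2 (SE 0.19, adjusted p = 0.000123). In each of these 4 genes the old groups were far apart relative to their spread. After quantile normalization 19 members were called, 18 lower and Cox7a2l higher, and without old HSC replicate 1 there were 19, all lower. The share of all genes called in these fits is not given here, so the counts cannot be set against it.

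**Figure D5:**
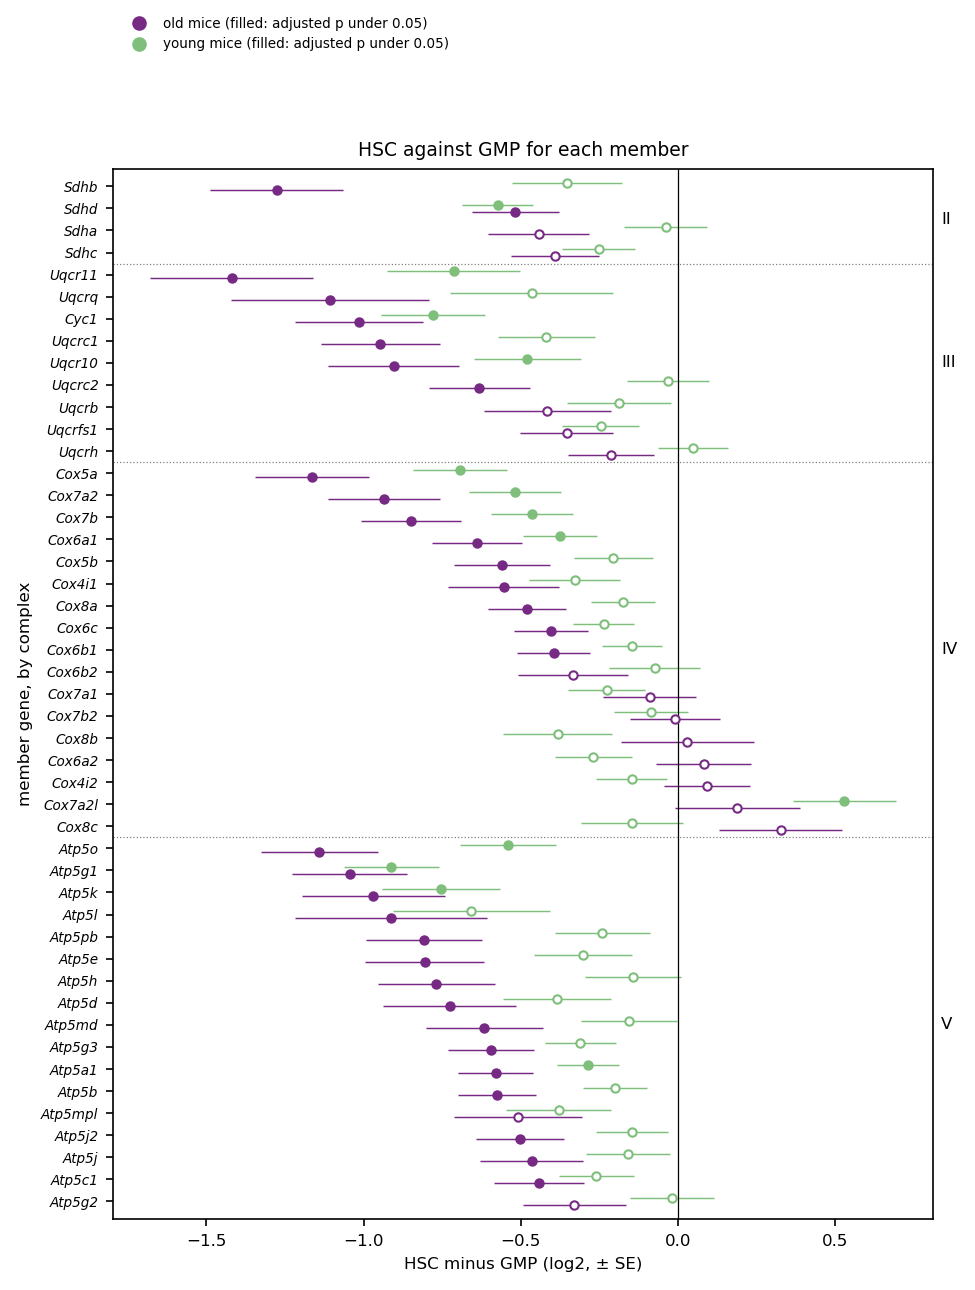
HSC minus GMP for each member in old mice (purple) and young mice (green), in log2 with the standard error, ordered by complex, from the fit without the replicate block. Filled points passed an adjusted p of 0.05: 32 in old mice, all left of 0, and 13 in young mice, with Cox7a2l right of 0.

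The cell type comparisons called 12 members lower at both ages: Sdhd, Cyc1, Uqcr10, Uqcr11, Cox5a, Cox6a1, Cox7a2, Cox7b, Atp5a1, Atp5g1, Atp5k and Atp5o. The other probe set of Atp5g1 passed at neither age. By the probe set used, another 20 were called in old mice and not in young mice, but this does not show that the cell type difference changed with age. That change is the same contrast as the difference between both age effects, in which 0 members were called. These sets come from the fit without the replicate block. With the block over all arrays, old ones included, 9 of the 20 were called in young mice too: Atp5c1, Atp5d, Atp5e, Atp5g3, Atp5l, Cox4i1, Cox6c, Uqcrc1 and Uqcrq. By the probe set used, 11 members were called in no comparison of the fit without the block. They were Sdhc, Uqcrb, Uqcrh, Atp5g2, Atp5mpl and 6 of the 7 tissue-restricted isoforms of complex IV. Of these, Atp5mpl, Cox6a2 and Cox8b were called lower in young HSC than in young GMP with the block. The other probe sets of the members mostly agreed in sign for age in HSC: of 19 such probe sets 18 had the sign of the one used, 8 were called lower and 0 higher. The exception was a probe set of Atp5l. Their sizes differed. Among members that fell, another probe set of Atp5g1 was at -0.15 log2 against -0.59 for the one used, of Atp5pb at -0.26 against -0.64 and of Uqcr11 at -0.70 against -0.95, and none of these 3 passed. Atp5h had another at -0.72 log2, which passed, and a dim one at -0.06, which did not. Uqcrb, not called by the probe set used, had others at -0.76 and -0.49 log2, both called lower (adjusted p = 0.0226 and 0.0350). Both were also called lower in old HSC than in old GMP (adjusted p = 0.0328 and 0.0498). Atp5md and Atp5l each had one that passed, at -1.27 and -1.18 log2, beside others that did not. One of Atp5g2 was called lower in young HSC than in young GMP (-0.45 log2, adjusted p = 0.00827), and its others were not. Of the 20 called only in old mice, Atp5md, Atp5l and Cox6c had other probe sets called lower in young HSC than in young GMP. These were at -0.93 log2 for Atp5md, -0.36 for Cox6c and -0.91, -0.89 and -0.67 for Atp5l. Another of Atp5md (-0.16 log2) and of Atp5l (0.08) did not pass there, nor did those of Atp5h, Atp5pb and Cox5b. Members with several probe sets may share signal with near-identical gene copies, and their values are less certain for that reason.

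Genes that work with these complexes were counted in the same fit for age in HSC, beside the same background of 9.22% lower and 2.25% higher. In the brightest and next brightest of the 10 groups, 29.1% and 25.6% of all genes were called lower. The lists were not matched for brightness, so the 9.22% is a low background for bright genes. Of 35 complex I subunits 26 fell and 0 rose, with a median of -0.61 log2, among them Ndufb10 by 1.09, Ndufb9 by 1.04 and Ndufb6 by 1.02 log2. Of 31 assembly factors of complexes II to V 9 fell and 0 rose. The largest were Uqcc2, needed to build complex III, which fell by 1.23 log2 (adjusted p = 0.00291), Sdhaf4, which helps to assemble complex II, by 1.04, and Cox19, a factor for complex IV, by 0.90. Of 12 mobile carriers of electrons, ATP and phosphate 5 fell, among them the ADP/ATP carrier Slc25a5 by 0.90, cytochrome c, Cycs, by 0.81 and the outer membrane channel Vdac2 by 0.72 log2. Of 12 TCA cycle enzymes 5 fell, with Suclg1 by 0.66, Idh3b by 0.62 and Fh1 by 0.60 log2. Of 16 genes for mitochondrial import and structure 6 fell, with Tomm20 by 0.89, Timm50 by 0.83 and Timm23 by 0.54 log2. Of 16 regulators of respiratory gene transcription 2 fell and 1 rose. Gabpb1, a subunit of the ETS factor GABP, fell by 0.60 log2, Tfb1m, a mitochondrial rRNA methyltransferase, fell by 0.58, and Ppargc1a, the coactivator PGC-1alpha, rose by 0.49 log2 (adjusted p = 0.0384). In GMP 0 genes of any of these lists were called with age.

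Markers of other cell types were measured beside these results. The mean of 34 markers of erythroid cells, megakaryocytes, B cells, T and NK cells, neutrophils, macrophages, mast cells and endothelium ran on the HSC arrays from 6.89 to 6.97 log2 (old) and 6.83 to 6.91 (young), and on the GMP arrays from 7.32 to 7.40 (old) and 7.27 to 7.54 (young). With age in HSC 4 of the 34 were called: Slc4a1 (0.39 log2) and Klrb1c (1.15) rose, and Nkg7 and Emcn fell by 0.61 and 1.18 log2. Of all genes 11.5% were called, a share near that of the markers. The mean of the 5 T and NK cell markers was 7.01 to 7.10 log2 on the old HSC arrays and 6.56 to 6.85 on the young ones, without overlap. Their median difference was 0.38 log2, and 4 of the 5 had an unadjusted p under 0.05, as did 6054 of the 19296 genes. In 5 of the 34 the values lay below the lower quartile of the arrays in all 4 groups. The part of other cells in the members' differences was not tested.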

How the data were processed

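The deposited table holds log2 expression values per probe set and array. Per the submitters' processing notes the authors used RMA, affy and limma, with no versions. The scale was read from the values, and a genome build, array scan dates and filters were not given in the sources used here. All 15 columns were matched to samples. Of 23309 probe sets 20728 carried 1 gene symbol, 1174 several and 1407 none. Only the first kind was used. The brightest probe set per symbol gave 19296 genes.

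Group means were estimated from all 15 arrays in 1 model with limma 3.58.1 in R 4.3.3, with empirical Bayes moderation, Benjamini-Hochberg adjustment over all genes and a threshold of 0.05. The fit was tested on simulated data. The number of arrays limits the precision of every value. Mean levels served to pick 1 probe set per gene and to split genes into brightness groups. The members and gene lists were chosen with earlier results of these data known. Named for age in HSC were, per complex, the 3 largest called differences and the smallest difference, for the other age tests the 3 smallest p, for cell types the largest called difference per complex and direction, isoform families in full, and up to 3 called genes per related list. Members named by role were added after their values were seen.

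Same-numbered young HSC and young GMP arrays correlated in their deviations from the group means (r = 0.29, 0.23, 0.16 and 0.52 for replicates 1 to 4). For young HSC replicates 1, 3 and 4 the same-numbered young GMP array had the highest r. For young HSC replicate 2 it was young GMP replicate 1 (r = 0.25). A fit of all arrays with the number as a block is given beside the comparison of young HSC with young GMP. All other values, the figures and the sets of called members come from the fit without it. Pairs of old arrays (r = 0.05, 0.23 and 0.42) and pairs across age did not all do so. Alternatives covered normalization, covariates, arrays in the fit, pairing, weights, moderation, filter, probe set choice and leaving out arrays.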

Additional observations from a re-analysis of the deposited data

Results flagged for a closer look

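In 42 combinations of a named member with 1 of the 2 young groups, 9 had an array farther from the others than Dixon's 95% limit. The old groups, with 3 arrays each, were not tested, so the flags do not compare young with old arrays. Chance gives about 1 in 20 for independent tests. These genes were measured on the same arrays, so the 9 are not set against that rate. All 9 lay on replicate 4 of a young group, always as the lowest value. On young GMP replicate 4, Atp5b was at 11.81 log2 (others 12.11 to 12.15), Atp5e at 11.62 (12.01 to 12.05), Cyc1 at 9.94 (10.70 to 10.77), Uqcr10 at 10.02 (10.59 to 10.67), Uqcr11 at 9.45 (10.31 to 10.39) and Uqcrq at 11.09 (11.86 to 11.92). On young HSC replicate 4, Sdha was at 10.45 (10.92 to 10.98), Sdhc at 10.23 (10.51 to 10.60) and Uqcrq at 10.09 (11.30 to 11.68). The same 2 arrays had the narrowest spread of values in their groups and the lowest Eif2s3y.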

How the results depend on the processing

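Members called for age in HSC numbered 25. They became 9 with quantile normalization, 0 with the interquartile range as a covariate, 13 with only the HSC arrays, 41 with a replicate block (37 lower; Cox4i2, Cox6a2, Cox8b and Cox8c higher), 43 with array weights (40 lower; Cox4i2, Cox8b and Cox8c higher) and 40 without number 4 of both young groups (38 lower, 2 higher), and 5 to 39 when single arrays were left out. Members called for age in GMP, 0, became 6 with a replicate block, 12 with array weights and 5 without number 4. The difference of both age effects, 0, became 20 with array weights, 1 without number 4 and 0 to 2 with single arrays left out. HSC against GMP in young mice, 13, became 28 with the interquartile range, 26 with a replicate block, 21 with weights and 8 to 17 with single arrays left out. Added after seeing the data, a block on the young arrays alone gave 25 and a block with quantile normalization 22. HSC against GMP in old mice, 32, became 19 with quantile normalization and 19 to 37 with single arrays left out. Same-numbered old and young arrays share only a number, and the replicate block there is no paired design. Of the named members' alternative values 709 kept their side of the threshold, 55 lost it, 22 gained it and 0 reversed. The cause of these shifts was not tested, and the counts here come without the share of all genes called in each fit.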
